A study of Mus musculus with 9 samples.

Results

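SoxB and SoxC genes encode transcription factors of neural progenitors and newborn neurons. The group comprises 8 genes, taken by symbol from a table of 45706 gene identifiers. Sox1, Sox2 and Sox3 form class SoxB1, Sox14 and Sox21 form class SoxB2, and Sox4, Sox11 and Sox12 form class SoxC. Each symbol matched 1 row of the table, and all 8 genes passed the filter on low counts that left 17971 genes. RNA was sequenced from the central nervous system of untreated C57BL6/J mice, an inbred laboratory strain, at stages E9.5 and E14.5, counted in days of embryonic development, and P60, counted in days after birth. Each stage had 3 libraries. The E9.5 tissue was the head cut behind the fourth ventricle and trimmed of tissue outside the neuroectoderm, the E14.5 tissue was brain freed of meninges, and the P60 tissue was taken from adults perfused with saline. No allele or agent distinguishes the stages, and the labels give no sex. They do not say that replicates are different mice, so each p-value weighs a difference only against the variation among these 9 libraries, which may be technical.

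All Sox proteins bind the minor groove of DNA through a high mobility group (HMG) box, which bends the DNA. SoxB1 proteins activate genes of neural progenitors, often beside POU-domain partners, and hold cells in the progenitor state. SoxB2 proteins share their DNA-binding specificity and act mainly as repressors. SoxC proteins activate genes that cells switch on as they become neurons, among them genes of the neuronal cytoskeleton. In the adult brain, Sox2 is known from neural stem cells, astrocytes and precursors of oligodendrocytes.

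The sequences before the start sites of Sox2 and of the 3 SoxC genes are shown because these were the most abundant members at E14.5. They come from RefSeq (build GRCm38.p6), where 7 of the 8 genes were matched, and Sox3 is named only. Each is printed 5′ to 3′ on the gene's own strand and ends before the start sites of both RefSeq and GENCODE. Capitals mark the CCAAT box (CCAAT or its reverse complement ATTGG) and the core of the octamer bound by POU factors (ATGCAAA or its reverse complement).
Sox2 (chr3:34649745-34649994, + strand): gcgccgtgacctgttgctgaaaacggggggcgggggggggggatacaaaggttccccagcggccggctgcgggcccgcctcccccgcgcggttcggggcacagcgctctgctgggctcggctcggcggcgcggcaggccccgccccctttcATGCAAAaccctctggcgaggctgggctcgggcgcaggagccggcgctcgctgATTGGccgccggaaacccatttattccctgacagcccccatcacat
Sox4 (chr13:28953714-28953949, - strand): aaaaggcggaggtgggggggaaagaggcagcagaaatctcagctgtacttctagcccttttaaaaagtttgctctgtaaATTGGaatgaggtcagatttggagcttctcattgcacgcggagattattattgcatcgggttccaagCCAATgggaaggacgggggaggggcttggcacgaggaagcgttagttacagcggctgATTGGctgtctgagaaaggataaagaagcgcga
Sox11 (chr12:27342719-27342968, - strand): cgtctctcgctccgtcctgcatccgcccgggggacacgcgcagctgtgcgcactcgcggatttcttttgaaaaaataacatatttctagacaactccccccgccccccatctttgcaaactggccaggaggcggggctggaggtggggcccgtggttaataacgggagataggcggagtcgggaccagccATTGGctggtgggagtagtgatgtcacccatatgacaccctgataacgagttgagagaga
Sox12 (chr2:152398064-152398296, - strand): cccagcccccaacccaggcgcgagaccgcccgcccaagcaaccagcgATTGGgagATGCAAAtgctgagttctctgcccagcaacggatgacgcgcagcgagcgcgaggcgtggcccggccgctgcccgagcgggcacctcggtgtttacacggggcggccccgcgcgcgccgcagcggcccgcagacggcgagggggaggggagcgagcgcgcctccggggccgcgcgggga

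The stretch of Sox4 held 3 CCAAT boxes, and those of Sox2, Sox11 and Sox12 held 1 each. The octamer core stood once in the stretch of Sox2 and once in that of Sox12. Over 32851 RefSeq start sites, 33.8% had a CCAAT box and 4.1% an octamer core within the 250 bases before the start. In windows of that length, 6 of the 7 matched members had a CCAAT box, Sox21 being without one. These windows end at the RefSeq start and were not trimmed. The window of Sox1 (12395269 to 12395518) lies mostly inside its GENCODE transcript, which starts at 12395295. Those of Sox4 and Sox12 also run past their GENCODE starts. The GC box GGGCGG stood in the windows of Sox1, Sox2, Sox14, Sox11 and Sox12, against 32.7% of all start sites. The TATA box TATAAA was in none of the 7 windows and in 12.4% of all. Of the short motifs that Sox proteins bind, ACAAAG stood once, in Sox2, and ACAATG in none of the 7, against 16.5% and 10.7% of all start sites. The E-box CANNTG, bound by proneural factors, stood in Sox14, Sox4, Sox11 and Sox12, against 66.2% of all. G and C made up 50.8 to 74.4% of the bases in the 7 windows, and the shares of all start sites were not matched for that. Motifs were searched on both strands, and a match describes letters, not binding.

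Each of the 8 genes is a single exon block, which is typical of these Sox classes. On GRCm38, Sox1 lies on chromosome 8 (12395295 to 12400126), Sox2 on chromosome 3 (34650405 to 34652461) and Sox3 on chromosome X (60891366 to 60893430). Sox14 lies on chromosome 9 (99874106 to 99876170) and Sox21 on chromosome 14 (118233232 to 118237030). Sox4 lies on chromosome 13 (28948919 to 28953713), Sox11 on chromosome 12 (27334264 to 27342574) and Sox12 on chromosome 2 (152393611 to 152398063). Sox11 was the longest, with 8311 exon bases, and Sox2 the shortest, with 2057. Levels of one gene are given as CPM, counts scaled to 1000000 per library, on totals adjusted for composition, and levels of different genes are compared as CPM per kilobase of exon.

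Libraries held 30481975 to 35619093 counts. The correlation of log2 CPM across genes was 0.98 to 0.995 within a stage and 0.61 to 0.857 between stages. Genes of surface ectoderm and other epithelia summed to 242 to 358 CPM at E9.5, 13.2 to 14.8 at E14.5 and 8.4 to 15.1 at P60 (8 genes), and mesenchyme and neural crest genes to 684 to 840, 451 to 838 and 16.8 to 25 CPM (9 genes). All of these genes had reads at every stage, and cells of both kinds are known to express Sox2, Sox4 or Sox11. Their part in the stage differences was not tested, and tissue taken and age cannot be told apart. In these bulk libraries, fewer cells of a type and less RNA per cell cannot be told apart either.

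SoxC genes had their highest levels at E14.5 and were low in the adult. Sox11, a driver of neuronal differentiation and axon growth, was the most abundant member at E14.5 by CPM and by CPM per kilobase of full exon length. It had 372, 371 and 417 CPM at E9.5, 1440, 1240 and 1190 CPM at E14.5, and 4.53, 5.46 and 3.92 CPM at P60. The 3 stages did not overlap, and every E14.5 library stood above every other library. Sox11 rose 3.34-fold at E14.5 against E9.5 (log2 fold change 1.74 ± 0.16, SE; adjusted p = 3.9e-06, edgeR quasi-likelihood test). At P60 against E14.5 it fell 278-fold (-8.12 ± 0.21, adjusted p = 2.9e-09), the 32nd largest fall of the 17971 tested genes. Against E9.5 the adult level was 83.3-fold lower (adjusted p = 6.6e-10).

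Sox4, which acts with Sox11 in newborn neurons, took a similar course from a lower start. Its libraries had 87.7, 80.9 and 74.1 CPM at E9.5, 356, 408 and 382 CPM at E14.5, and 4.9, 6.67 and 4.77 CPM at P60. No library of one stage reached another stage's range. Sox4 was 4.72-fold higher at E14.5 than at E9.5 (2.24 ± 0.16, adjusted p = 5.9e-07) and 70-fold lower at P60 than at E14.5 (-6.13 ± 0.19, adjusted p = 3.9e-09). P60 was also 14.8-fold below E9.5 (adjusted p = 6e-09). An annotated antisense gene, Gm26735, covers 2616 of the 4795 exon bases of Sox4 and had 0 reads in all 9 libraries. The authors' rule for reads in shared bases was not among the sources used here. The level of Sox4 per length may therefore be understated.

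Sox12, the least studied SoxC gene, changed least at the first step. It had 205, 161 and 166 CPM at E9.5, 321, 257 and 246 CPM at E14.5, and 8.93, 11.5 and 7.57 CPM at P60. The E14.5 libraries were all above those of E9.5, by a margin smaller than for Sox4 or Sox11. The rise at E14.5 was 1.55-fold (0.63 ± 0.18, adjusted p = 0.011), and the adjusted p was 0.05, above the threshold before rounding, without the second E9.5 library. The fall at P60 against E14.5 was 29.4-fold (-4.88 ± 0.22, adjusted p = 1.8e-08), and P60 was 18.9-fold below E9.5 (adjusted p = 1.2e-08).

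**Figure D1:**
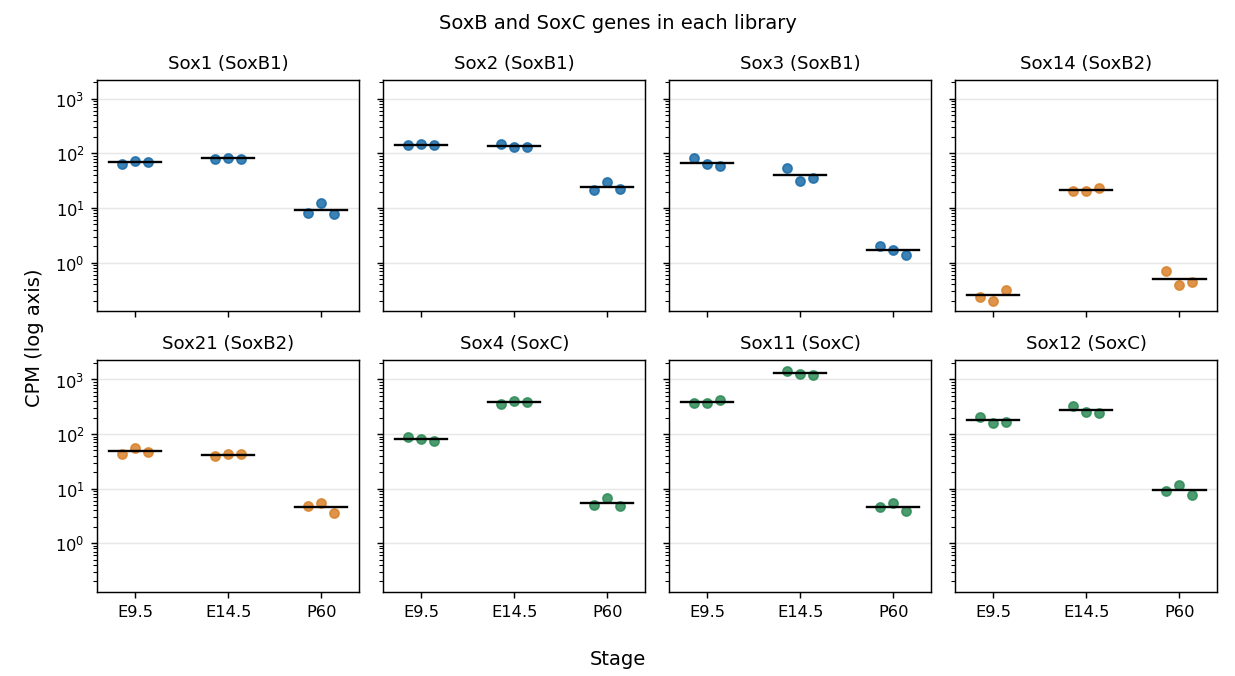
CPM on a log axis in each library (points) with the stage mean (line), for the 8 genes at E9.5, E14.5 and P60, coloured by class. Sox4, Sox11 and Sox12 peak at E14.5, Sox14 is above 20 CPM at E14.5 and below 1 CPM at the other stages, and every gene is lower at P60 than at E14.5.

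Of the SoxB1 genes, Sox3 was called at E14.5 against E9.5 and Sox1 and Sox2 were not, and all 3 fell at P60. Sox2, required for neural progenitors and a factor of pluripotent cells, had 144, 146 and 142 CPM at E9.5, 152, 129 and 130 CPM at E14.5, and 21.7, 30.2 and 22.2 CPM at P60. The embryonic stages overlapped, and all adult libraries were below both. The difference of E14.5 against E9.5 was -0.07 ± 0.15 on the log2 scale (95% interval -0.37 to 0.23, adjusted p = 0.69), with a sign that turned to 0.01 when plain library totals were used. Sox2 was 5.54-fold lower at P60 than at E14.5 (-2.47 ± 0.16, adjusted p = 2.3e-07), the smallest fall among the 8 genes, and 5.83-fold lower at P60 than at E9.5 (adjusted p = 7.9e-08).

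Sox1, a SoxB1 gene largely restricted to neural tissue, had 63, 73.7 and 70.8 CPM at E9.5, 80.1, 83.9 and 79.4 CPM at E14.5, and 8.1, 12.1 and 7.69 CPM at P60. The E14.5 libraries stood above those of E9.5 without overlap, by a small margin. That difference was not called (0.23 ± 0.17, 95% interval -0.10 to 0.57, adjusted p = 0.26). It was called, with the same log2 value of 0.23, in a fit of these 6 libraries with the replicate number as a block (adjusted p = 0.028). At P60 Sox1 fell 8.73-fold against E14.5 (-3.13 ± 0.19, adjusted p = 1.3e-07), and it was 7.44-fold lower than at E9.5 (adjusted p = 8.1e-08).

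Sox3, the X-linked SoxB1 gene, was the only SoxB1 member called at the first step in the fit without a block. It had 81.8, 62.7 and 58.3 CPM at E9.5, 53.4, 31.5 and 35.8 CPM at E14.5, and 2.03, 1.67 and 1.39 CPM at P60. The highest E14.5 library was just under the lowest E9.5 library. At E14.5 Sox3 was 1.68-fold lower than at E9.5 (-0.75 ± 0.22, adjusted p = 0.011). Without the second E14.5 library the value was -0.59, with an adjusted p of 0.053. At P60 it fell a further 23.7-fold (-4.57 ± 0.27, adjusted p = 1e-07), and P60 was 39.8-fold below E9.5 (adjusted p = 1.5e-08).

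The SoxB2 genes took unlike courses. Sox14, known from GABAergic neurons of the thalamus and midbrain, had 0.234, 0.199 and 0.319 CPM at E9.5, 20.7, 20.3 and 23.2 CPM at E14.5, and 0.7, 0.382 and 0.442 CPM at P60. The reads summed to 23 at E9.5, 2220 at E14.5 and 49 at P60, so the outer stages rest on few reads. Sox14 rose 83.9-fold at E14.5 against E9.5 (6.39 ± 0.27, adjusted p = 2e-08) and fell 42.2-fold at P60 against E14.5 (-5.40 ± 0.25, adjusted p = 2.2e-08). The adult level was 1.99-fold that of E9.5 (0.99 ± 0.31, adjusted p = 0.012). That small rise lost its call without the second E9.5 library (adjusted p = 0.052) or the first P60 library (adjusted p = 0.09).

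Sox21, a repressor that promotes neuronal differentiation in chick, had 42.9, 54.4 and 46.5 CPM at E9.5, 39, 42.4 and 43 CPM at E14.5, and 4.87, 5.46 and 3.51 CPM at P60. Its embryonic libraries overlapped by a narrow margin. The difference of E14.5 against E9.5 was -0.21 ± 0.17 (95% interval -0.54 to 0.12, adjusted p = 0.29). At P60 Sox21 was 8.98-fold lower than at E14.5 (-3.17 ± 0.19, adjusted p = 1.1e-07) and 10.4-fold lower than at E9.5 (adjusted p = 2.7e-08).

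Across the 8 genes, 4 rose, 1 fell and 3 were not called at E14.5 against E9.5, where 64.6% of all tested genes were called, 34.0% higher and 30.7% lower. The number of members called was therefore near the background. The genes that rose were Sox4, Sox11, Sox12 and Sox14, and the gene that fell was Sox3. At P60 against E14.5 all 8 fell, where 76.1% of all tested genes were called, 36.7% higher and 39.4% lower. At P60 against E9.5, 7 fell and Sox14 rose, where 82.6% of all tested genes were called, 42.0% higher and 40.6% lower. The median log2 fold change of the 8 genes was 0.43, -4.72 and -3.63 in these 3 comparisons, against 0.03, -0.06 and 0.05 over all tested genes. The libraries of the stages compared did not overlap for 6, 8 and 8 members, against 72.1%, 76.3% and 84.9% of all tested genes. The comparisons share stages, so their counts are not independent.

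**Figure D2:**
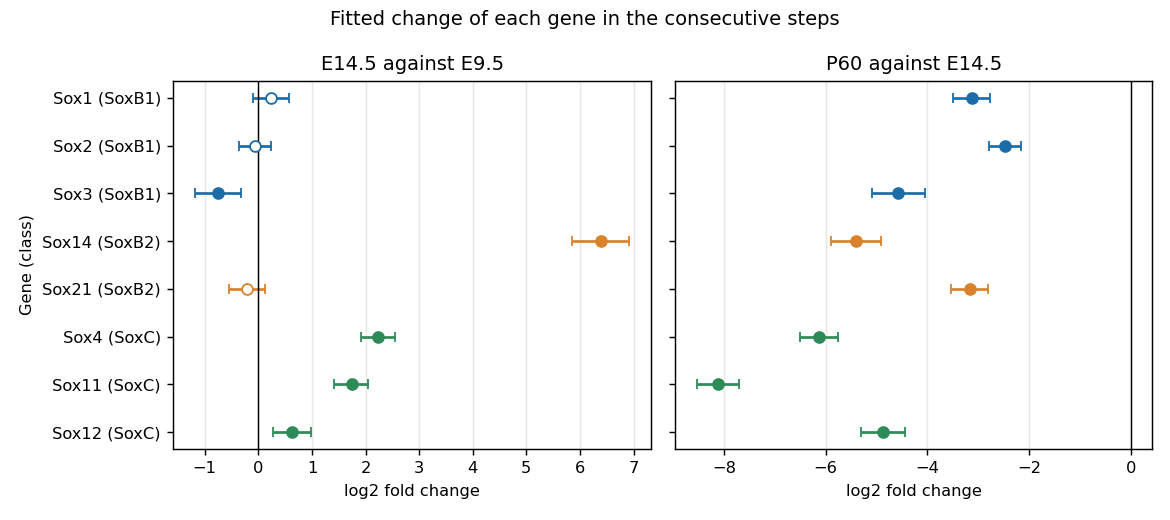
Fitted log2 fold change of each gene (point) with its approximate 95% interval (bar) at E14.5 against E9.5 and at P60 against E14.5, filled where the adjusted p was under 0.05. Sox1, Sox2 and Sox21 are open and near 0 in the first comparison, and all 8 genes are filled and below 0 in the second, from -2.47 for Sox2 to -8.12 for Sox11.

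Per kilobase of exon, Sox2 led at E9.5 with 70 ± 0.754 CPM per kb (SD, n = 3), above Sox11 with 46.5 ± 3.18, Sox12 with 39.8 ± 5.41 and Sox3 with 32.7 ± 6.06. Within that order Sox11 and Sox12 overlapped in their libraries, as did Sox12 and Sox3. Sox4 (16.9 ± 1.42), Sox1 (14.3 ± 1.15) and Sox21 (12.6 ± 1.54) followed, of which Sox1 and Sox21 overlapped, and Sox14 was last at 0.121 ± 0.0299 CPM per kb. At E14.5 Sox11 led with 155 ± 16.2 CPM per kb, a level above that of 99% of tested genes. Next came Sox4 (79.7 ± 5.39), then Sox2 (66.5 ± 6.31) and Sox12 (61.7 ± 9.11), whose libraries overlapped. Sox3 (19.5 ± 5.61) overlapped Sox1 (16.8 ± 0.506), and Sox21 (10.9 ± 0.57) overlapped Sox14 (10.4 ± 0.773).

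In the adult, Sox2 led again with 12 ± 2.32 CPM per kb, and no other member exceeded 2.59 in any library. Sox12 (2.1 ± 0.449) overlapped Sox1 (1.92 ± 0.501), and Sox21 (1.21 ± 0.264) overlapped Sox4 (1.14 ± 0.221). Sox3 (0.822 ± 0.157), Sox11 (0.558 ± 0.0935) and Sox14 (0.246 ± 0.0819) came last. By full exon length, Sox11 thus led at E14.5 and stood above only Sox14 at P60. The place of Sox4 depended on the length used. Reads could not be recounted by base, so the whole-gene CPM was also divided by the 2179 exon bases not shared with another gene, which gives an upper bound that would hold if every read in shared bases had been dropped. On that basis Sox4 had 175 ± 11.9 CPM per kb at E14.5, a higher mean than that of Sox11, whose libraries it overlapped. By that length Sox4 had 37.1 ± 3.12 at E9.5, where it overlapped Sox12 and Sox3. At P60 it had 2.5 ± 0.486, where it stood behind Sox2 and overlapped Sox12 and Sox1.

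The balance between classes differed between stages. SoxC genes made up 44.3 ± 1.38% of the summed CPM per kb of the 8 genes at E9.5, 70.5 ± 0.929% at E14.5 and 18.9 ± 0.624% at P60 (SD, n = 3). With whole-gene CPM divided by unshared bases, the shares were 48.1%, 75.6% and 23.7%. SoxB1 genes summed to 117 ± 5.57, 103 ± 11.6 and 14.8 ± 2.8 CPM per kb, and SoxC genes to 103 ± 5.7, 297 ± 21.4 and 3.79 ± 0.754. Within SoxB1, the share of Sox2 was 59.9 ± 2.48%, 64.8 ± 1.15% and 81.4 ± 1.46%, while that of Sox3 was 27.9 ± 3.87%, 18.7 ± 3.18% and 5.7 ± 1.56%. Within SoxC, Sox11 held 45.2 ± 3.87%, 52.3 ± 1.68% and 14.8 ± 0.557%, and Sox12 held 38.5 ± 3.26%, 20.7 ± 1.56% and 55.2 ± 1.31%. Sox12 was the largest SoxC share at P60 by the full lengths, and Sox4 was by the unshared length, at 48.5% against 40.6%. At E14.5 Sox11 was the largest by the full lengths. By the unshared length Sox4 was, at 44.8% against 39.5% for Sox11, with libraries that overlapped.

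**Figure D3:**
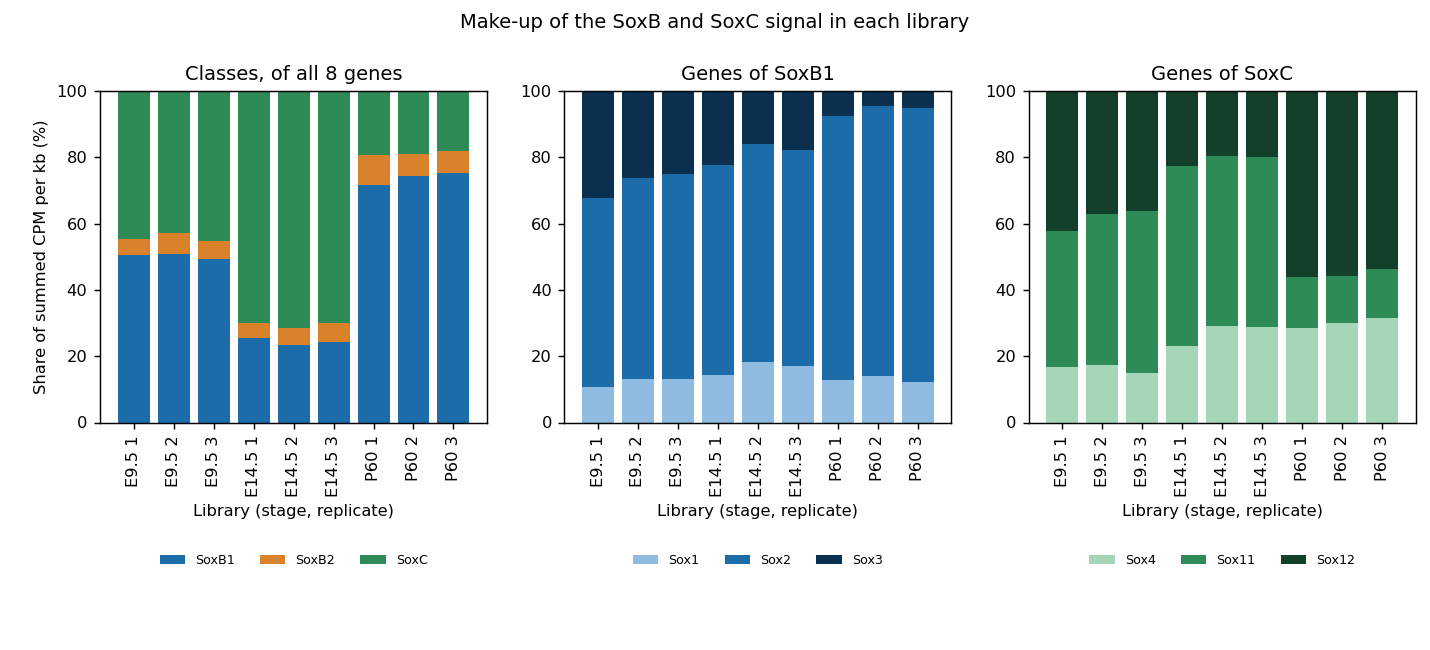
Share of the summed CPM per kb in each library, by class (left), by gene within SoxB1 (middle) and by gene within SoxC (right). SoxC takes 69.9 to 71.6% in the E14.5 libraries and 18.2 to 19.4% in the P60 libraries, and Sox2 takes 79.8 to 82.7% of SoxB1 at P60.

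Ratios within a library tested whether members changed unequally. For 7 pairs, the log2 ratio of (CPM + 1) was compared over the 3 stages by an exact permutation test over the 1680 assignments of the 9 libraries, with adjustment over the 7 pairs. Sox11 over Sox2 averaged 1.42 ± 0.11 at E9.5, 3.23 ± 0.05 at E14.5 and -2.18 ± 0.13 at P60 (SD, n = 3, exact permutation p = 0.0036, adjusted p = 0.0042). This p is the smallest the test can give, and it was also reached by the 5 other pairs named next. Sox4 over Sox11 averaged -2.24, -1.75 and 0.19, and Sox12 over Sox11 averaged -1.13, -2.23 and 0.87. The ratio of Sox12 over Sox11 was thus lowest at E14.5 and highest at P60.

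Among SoxB genes, Sox3 over Sox2 averaged -1.10 ± 0.25 at E9.5, -1.77 ± 0.26 at E14.5 and -3.24 ± 0.32 at P60, lower at each later stage. The added 1 CPM compresses the P60 value, as Sox3 averaged 1.7 CPM there. The ratio of Sox1 over Sox2 averaged -1.05, -0.74 and -1.33, a span under 1 log2 unit. Sox14 over Sox21 averaged -5.29, -0.92 and -1.89, where the added 1 CPM compresses the values of E9.5 and P60. Sox21 over Sox2 averaged -1.57 ± 0.16, -1.70 ± 0.21 and -2.20 ± 0.22 (exact permutation p = 0.032, adjusted p = 0.032). This pair lost its call without any of 5 single libraries (the second or the third of E9.5, the first of E14.5, the second or the third of P60), with exact permutation p-values of 0.054 to 0.096.

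**Figure D4:**
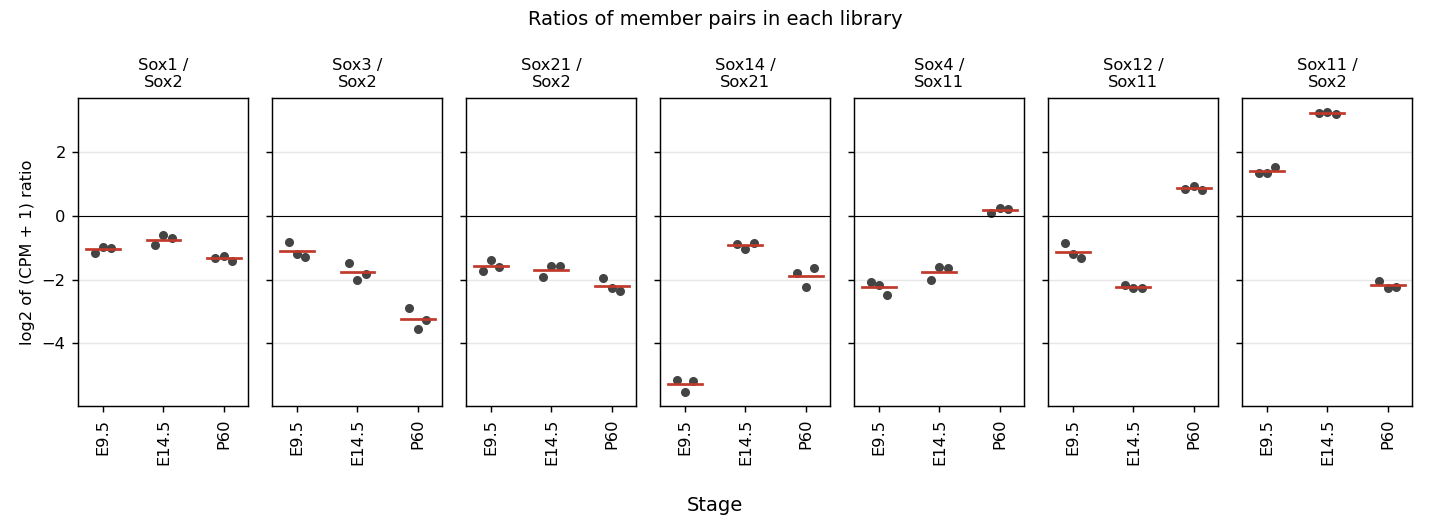
Log2 ratio of (CPM + 1) for 7 pairs of genes in each library (points) with the stage mean (line). The Sox11 to Sox2 ratio lies above 3 at E14.5 and below -2 at P60, and the Sox3 to Sox2 ratio is lower at each later stage.

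Among annotated genes that overlap the members, Sox2ot and Sox1ot rose at E14.5 against E9.5, where Sox2 and Sox1 were not called. Sox2 lies wholly inside Sox2ot, a noncoding transcript on the same strand that shares no exon base with it. Sox2ot had 13.8 ± 1.14 CPM at E9.5, 46.4 ± 1.88 at E14.5 and 48 ± 4.34 at P60 (SD, n = 3). It rose at E14.5 against E9.5 (1.75 ± 0.13, adjusted p = 9.3e-07) and was not called at P60 against E14.5 (0.05 ± 0.13, adjusted p = 0.74), where Sox2 fell. Sox1ot, which encloses Sox1 in the same way, had 4.62 ± 0.521, 48.7 ± 11.5 and 10.6 ± 0.797 CPM. Sox1ot rose at E14.5 against E9.5 (3.40 ± 0.20, adjusted p = 1.6e-07) and fell at P60 against E14.5 (-2.20 ± 0.19, adjusted p = 1.9e-06). Gm4675, an antisense transcript that shares 713 exon bases with Sox21, averaged 2.27, 1.65 and 0.499 CPM at the 3 stages, was not called at E14.5 against E9.5 (-0.46, adjusted p = 0.12) and, like Sox21, fell at P60 against E14.5 (-1.71 ± 0.28, adjusted p = 0.00019). A microRNA gene inside Sox1, Gm25239, had 0 reads. Whether the counting used strand was likewise not among the sources used here, and the kit does not mark strand, so reads in bases shared by opposite strands cannot be told apart.

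The genes with the most similar course over the 9 libraries were found by the root mean square distance of centred log2 CPM, among 15326 named genes. For Sox11 these were the heparan sulfate proteoglycan gene Gpc2 (0.46), the RNA-binding protein gene Mex3a (0.57) and Zfp663 (0.60). Gpc2 had 22.7, 66.6 and 0.116 CPM at the 3 stages. For Sox4 they were Dpysl5 (0.28), a cytosolic phosphoprotein of growing axons, Zfp57 (0.30) and Ttc28 (0.34), and Dpysl5 had 208, 838 and 17.7 CPM. For Sox12 they were Mfap2 (0.18), Tmem131l (0.18) and Vangl2 (0.20), a planar polarity gene.

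The nearest courses to Sox2 were Gmeb1 (0.10), Brd1 (0.11) and Socs3 (0.11), those of Sox1 were the corepressor gene Bcor (0.09), Cdh24 (0.11) and Mycl (0.12), and those of Sox21 were Mroh2a (0.11), Pde7a (0.13) and Sema3f (0.13). Sox3 was nearest to Nfatc4 (0.18), the corepressor gene Rcor2 (0.26) and Sp8 (0.27). Sox14 had no course closer than Otp (0.46), a hypothalamic homeobox gene, Lhx1 (0.47) and Pou4f3 (0.53), and Otp had 0.304, 25 and 0.801 CPM. Among the members themselves Sox1 and Sox21 were nearest (0.24), then Sox1 and Sox2 (0.29), while Sox4 and Sox11 were 1.08 apart.

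SoxB1 proteins share targets and partners with other progenitor factors. A list of neural progenitor genes and SoxB1 partner factors held 16 genes, of which 15 were tested. At E14.5 against E9.5, 7 rose and 3 fell, and at P60 against E14.5 all 15 fell, with median log2 fold changes of 0.43 and -2.79. Over all tested genes, 34.0% were called higher and 30.7% lower at the first step, and 36.7% and 39.4% at the second. These shares are the background for the counts of every list below. The number of progenitor genes called at E14.5 against E9.5 was near the background. The largest rises at E14.5 were in Fabp7, a lipid-binding protein of radial glia (520 ± 104 against 39.4 ± 4.39 CPM, 3.72 ± 0.25, adjusted p = 3.2e-07), and in Pou3f3 (1.86 ± 0.20, adjusted p = 1.1e-05). The POU partner genes Pou3f1, Pou3f2 and Pou3f4 rose as well, by 0.87, 0.64 and 0.82. Otx2, a forebrain and midbrain factor, had the largest fall (-1.27 ± 0.16, adjusted p = 5e-05). Nes, an intermediate filament gene whose enhancer SoxB1 and POU factors bind, had 507 ± 115 CPM at E14.5 and 566 ± 84.3 CPM at E9.5 (adjusted p = 0.54). In the adult Nes fell to 7.06 CPM (-6.16 ± 0.27 against E14.5, adjusted p = 1.6e-08). Notch1, a receptor that keeps progenitors undifferentiated, fell to 5.27 CPM at P60, against 129 CPM at E14.5 (-4.61 ± 0.40, adjusted p = 1.6e-06).

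Of 9 proneural and neurogenic genes, 5 rose and 3 fell at E14.5 against E9.5, and all 9 fell at P60 against E14.5 (medians 1.28 and -4.71). The background at these steps was 64.6% and 76.1% of all tested genes called. Neurog2, a proneural factor that acts upstream of SoxC genes in chick, had 103 ± 11.9 CPM at E14.5 and 8.54 ± 0.756 CPM at E9.5 (3.60 ± 0.17, adjusted p = 4.4e-08). Eomes, a factor of intermediate progenitors, had 0.209 ± 0.206 CPM at E9.5, 114 ± 9.41 CPM at E14.5 and 0.11 ± 0.0825 CPM at P60 (adjusted p = 4.1e-08 and 2.5e-08 for the consecutive steps). Rest, a repressor of neuronal genes, fell at E14.5 (-1.49 ± 0.18, adjusted p = 2.6e-05). Of 12 genes listed for newborn neurons or as described SoxC targets, 11 rose and 1 fell at E14.5, and 11 fell at P60 against E14.5 (medians 3.65 and -2.37). Tubb3, the neuronal tubulin gene that Sox4 and Sox11 activate in chick, had 2660 ± 665 CPM at E14.5 against 133 ± 21.7 CPM at E9.5 (4.32 ± 0.22, adjusted p = 5.4e-08). In the adult it had 629 ± 6.09 CPM, a log2 fold change of -2.08 ± 0.20 against E14.5 (adjusted p = 3.7e-06). The largest changes of the list were in Dcx, which binds microtubules in migrating neurons. It had 17.6 CPM at E9.5, 1270 CPM at E14.5 and 5.72 CPM at P60 (6.17 ± 0.39 and -7.79 ± 0.42, adjusted p = 2.4e-07 and 6.7e-08). Tead2, a Hippo pathway factor described as a SoxC target, fell at E14.5, where the SoxC genes rose (171 ± 31.6 against 575 ± 64.3 CPM, -1.75 ± 0.17, adjusted p = 5.5e-06).

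Of 8 genes listed for the thalamic and midbrain GABAergic lineage of Sox14, 5 rose and 0 fell at E14.5 against E9.5, and 1 rose and 5 fell at P60 against E14.5 (medians 1.79 and -2.54). The numbers called in either direction were near the 64.6% and 76.1% of all tested genes called at these steps. Lhx5, a homeobox gene of early diencephalic and midbrain neurons, had the largest fall at P60 (-4.96 ± 0.24, adjusted p = 3.4e-08). Gata3, a factor of that lineage, had 1.12 CPM at P60 and 25.7 CPM at E14.5 (-4.55 ± 0.58, adjusted p = 3.5e-05). Tal1, which acts with Gata factors, had 4.61 CPM at P60 and 36.9 CPM at E14.5 (-3 ± 0.25, adjusted p = 1.2e-06). Gad1, which makes GABA, rose at both steps (7.14 ± 0.23 and 1.91 ± 0.17, adjusted p = 8.4e-09 and 2.2e-06). It had 369 CPM at P60, where Sox14 averaged 0.508 CPM. In these bulk libraries the list therefore does not track the lineage of Sox14 alone.

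The other Sox genes (11 listed, 10 tested) had 5 higher and 3 lower at E14.5 against E9.5, and 2 higher and 6 lower at P60 against E14.5 (medians 0.27 and -2.07). Of all tested genes, 64.6% and 76.1% were called at these steps. Sox5, a SoxD factor, took the course of the SoxC genes, with 20.9 ± 1.01, 128 ± 18.4 and 10.5 ± 5.15 CPM at the 3 stages. Sox10, a factor of oligodendrocytes and neural crest, took the opposite one, with 34.1 ± 10.1, 5.13 ± 1.75 and 40.8 ± 14.7 CPM. Sox8, also of the oligodendrocyte lineage, rose at both steps (0.89 ± 0.18 and 1.04 ± 0.18, adjusted p = 0.0013 and 3e-04). The 11 genes summed to 304 to 339, 284 to 369 and 116 to 171 CPM, at E9.5, E14.5 and P60.

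Markers of the cell types in the tissue also differed between stages, some lists in the direction of the members and some against it. Their part in the members' differences was not tested. The background was 64.6% of all tested genes called at E14.5 against E9.5 and 76.1% at P60 against E14.5. The 10 cell cycle genes all fell at E14.5 against E9.5, where Sox1, Sox2 and Sox21 were not called, and 1 rose and 9 fell at P60 against E14.5. Their median log2 fold changes were -1.89 and -5.81, against 0.03 and -0.06 over all tested genes, and they summed to 3920 to 4120, 1020 to 1170 and 141 to 166 CPM. The 8 mature neuron genes rose at both steps and summed to 22.6 to 26, 329 to 456 and 7490 to 9640 CPM. The 8 astrocyte genes numbered 6 higher and 1 lower at E14.5 and 8 higher at P60, summing to 308 to 395, 439 to 597 and 4350 to 4400 CPM. The 8 oligodendrocyte lineage genes numbered 4 higher and 2 lower, then 5 higher and 0 lower, and summed to 120 to 141, 110 to 158 and 12600 to 14900 CPM. Sox2 was thus lower in the adult libraries, where the summed markers of astrocytes and oligodendrocytes were highest. The 5 ependymal genes numbered 3 higher and then 4 higher and 1 lower.

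All 8 epithelial genes fell at E14.5 against E9.5, and 1 rose and 2 fell at P60 against E14.5. Of 9 mesenchyme and neural crest genes, 2 rose and 7 fell, and then 9 fell. Endothelial genes numbered 1 higher and 0 lower of 5, then 0 and 4. Microglial genes numbered 4 higher and 1 lower of 5, then 5 and 0, and red blood cell genes 4 higher and 2 lower of 6, then 0 and 6. The first E14.5 library had 1940 CPM in these 6 globin genes, against 977 and 1030 CPM in the others of that stage. It also had 3610 CPM in neural progenitor genes, against 2920 and 3020, 329 CPM in mature neuron genes, against 456 and 416, 439 CPM in astrocyte genes, against 597 and 556, and 451 CPM in mesenchyme and neural crest genes, against 612 and 838. It was also the highest E14.5 library for Sox2, Sox3, Sox11 and Sox12, the lowest for Sox4 and Sox21, and the middle one for Sox1 and Sox14. Without that library no call of a member at E14.5 against E9.5 was lost, and the log2 fold change of Sox3 was -1 and that of Sox12 0.51.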

How the data were processed

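Total RNA of mouse central nervous system was sequenced in 9 libraries, 3 per stage, prepared per the labels' protocols with a low-input kit that amplifies full-length cDNA from poly(A) tails by PCR. The deposited values are raw read counts per Ensembl gene. Trimmomatic 0.36, STAR 2.5.2b and the build mm10 are named in the submitters' processing notes. The counting program, annotation and strand setting are not given in the sources used here. Of 45706 identifiers 45143 matched GENCODE M21 (GRCm38), the source of symbols, coordinates and exon lengths. Library totals were 30481975 to 35619093 counts, and PCR copies carry no molecular identifiers.

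The quasi-likelihood test of edgeR 4.0.16 (R 4.3.3) was run on counts scaled by TMM and filtered by filterByExpr, with the robust option, over all 9 libraries with stage as the only factor. Tests were two-sided with Benjamini-Hochberg adjustment over 17971 genes and a threshold of 0.05. Each SE is the size of the log2 fold change divided by the root of its F statistic, and the 95% intervals are normal intervals from it. CPM used TMM-adjusted totals, and log2 CPM a prior count of 2. Of the scripts, only the edgeR fit of E14.5 against E9.5 was tested on simulated data. Few genes changed in that simulation, unlike in the real comparisons. Named genes were the 8 members, genes overlapping them, the 3 nearest courses per member, and, for each of 15 lists at each consecutive step, up to 2 called genes of the commoner direction and 1 of the rarer, of which a part is printed. Others are printed as background to a member, chosen after their values were seen. The members and lists were chosen with earlier results of these data known.

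Deviations of same-numbered libraries of E14.5 and E9.5 correlated at 0.37, 0.141 and 0.209. Differently numbered pairs of libraries 2 and 3 reached similar values, 0.202 (E9.5 3 with E14.5 2) and 0.185 (E9.5 2 with E14.5 3). Differently numbered pairs with a number 1 library correlated at -0.29 to -0.224. The values thus set the number 1 libraries apart and do not show a pairing by number for libraries 2 and 3. Same-numbered libraries of P60 correlated at 0.171, 0.337 and -0.224 with E14.5, and at 0.096, 0.114 and -0.1 with E9.5. Replicate numbers cannot mark one animal at 3 ages, and the labels do not say what they share.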

Additional observations from a re-analysis of the deposited data

How the results depend on the processing

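Alternatives were median-of-ratios, upper quartile and plain library totals, no filter, DESeq2 1.42.0, a fit of only the stages compared, the replicate number as a block, and each library left out. For the 8 genes, all calls at P60 against E14.5 kept their direction and side of the threshold under each of them. At E14.5 against E9.5, Sox2 turned from -0.07 to 0.01 with plain library totals, not called either way. The replicate block over all 9 libraries called 12121, 14015 and 15081 genes in the comparisons E14.5 with E9.5, P60 with E14.5 and P60 with E9.5, against 11613, 13681 and 14844 without it, and changed no call of a member. In the 6 libraries of E14.5 and E9.5 alone, a block added after seeing the data called 13098 genes and added a call for Sox1. With 1 library left out, the members called numbered 4 to 5, 8 and 7 to 8 in the 3 comparisons, the losses being those of Sox3, Sox12 and Sox14 given above. The difference of the log2 Sox21 over Sox2 ratio at P60 against E9.5 was -0.62 and lay between -0.74 and -0.54 with 1 library left out. The other 6 pairs kept their calls under every alternative run for them. Dividing whole-gene CPM by the exon bases not shared with another gene, a choice made after seeing the data, moved the per-kilobase levels of Sox4 and Sox21 beyond 1 SD and of no other member. Scaling by the upper quartile moved the median log2 fold change of all genes by 0.16 at P60 against E14.5 and 0.15 at P60 against E9.5, and plain totals moved it by -0.14 at P60 against E14.5. The falls of the members there were many times these shifts.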
